A study of Mus musculus with 12 samples.

Results

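The genes followed here are 10 genes of mesendoderm formation and Nodal signalling: *Nodal*, its antagonists *Lefty1*, *Lefty2* and *Cer1*, the growth factor *Fgf8*, and the transcription factors *Gsc*, *Lhx1*, *Mixl1*, *Evx1* and *Mesp1*. They were chosen by symbol, through the 13 probe sets annotated to them, and all 10 were among the 16432 genes tested. RNA came from mouse embryonic stem cells (ESCs) of a 129/B6 hybrid background, all of them Ring1A(-/-);Ring1B(fl/fl);Rosa26::CreERT2. Ring1A and Ring1B are the E3 ligases that place ubiquitin on histone H2A in Polycomb repressive complex 1. 4-hydroxytamoxifen (OHT) switches on the CreERT2 recombinase, which removes *Ring1B*, so that only Ring1B from a transfected construct is then left. The mock line carried an empty vector, 2 lines expressed WT Ring1B (#1 and #3), 2 expressed Ring1B I53S (#1 and #4) and 1 expressed Ring1B I53A (#1). I53S and I53A replace an isoleucine of the RING finger, the surface that binds the ubiquitin-conjugating enzyme, and these 3 lines are called the mutant lines here. Each line was a stable transfectant with its own array before OHT and its own array at day 2, after 800 nM OHT for 24 hours, which gives 12 arrays from 6 lines. The labels do not tell which cultures stood on irradiated fibroblast feeders and which on gelatin. The comparison asks whether these developmental genes stay at their level when the remaining Ring1B is mutated.

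Nodal is a secreted ligand of the transforming growth factor beta family that signals through activin receptors, a Cripto co-receptor, Smad2, Smad3, Smad4 and Foxh1. It induces its own antagonists, the Lefty proteins, which gives the pathway a negative feedback loop. In the embryo high Nodal activity at the primitive streak turns on mesendoderm factors such as Gsc, Mixl1, Lhx1 and Eomes, and mouse ESCs in serum already express *Nodal* and both *Lefty* genes. Many mesendoderm factors are Polycomb targets in ESCs and have CpG-rich promoters.

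Promoter sequence was held for 6 of the 10 genes in RefSeq (GRCm38.p6). Those of *Gsc* and *Lhx1* are shown because both genes rose in the mutant lines, and that of *Nodal* because it stayed uncalled. Each is the 250 bases before the annotated start, 5′ to 3′ in the direction of the gene, with CpG dinucleotides in capitals. *Gsc* lies at chr12:104473237-104473486 on the minus strand, *Lhx1* at chr11:84525535-84525784 on the minus strand and *Nodal* at chr10:61417722-61417971 on the plus strand.
Gsc: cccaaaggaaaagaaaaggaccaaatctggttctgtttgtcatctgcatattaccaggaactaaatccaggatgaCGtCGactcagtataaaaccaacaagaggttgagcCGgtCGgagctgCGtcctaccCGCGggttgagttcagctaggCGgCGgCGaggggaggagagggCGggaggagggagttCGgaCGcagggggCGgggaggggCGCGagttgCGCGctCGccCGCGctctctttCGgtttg
Lhx1: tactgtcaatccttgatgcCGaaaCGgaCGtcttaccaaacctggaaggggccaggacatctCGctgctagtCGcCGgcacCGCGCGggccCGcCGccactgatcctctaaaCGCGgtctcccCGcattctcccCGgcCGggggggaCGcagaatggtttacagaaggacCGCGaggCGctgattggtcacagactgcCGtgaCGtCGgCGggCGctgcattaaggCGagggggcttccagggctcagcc
Nodal: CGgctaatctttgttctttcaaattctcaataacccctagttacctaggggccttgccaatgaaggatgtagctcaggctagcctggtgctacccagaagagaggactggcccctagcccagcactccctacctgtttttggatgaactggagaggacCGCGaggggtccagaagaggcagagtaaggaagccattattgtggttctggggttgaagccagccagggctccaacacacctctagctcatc

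The *Lhx1* window held 26 CpGs and the *Gsc* window 22, at or above 91.4% and 86.7% of 32851 mouse promoters. *Evx1* had 10, *Cer1* 5, *Nodal* 3 and *Mesp1* 2, around a median of 6 over all promoters. The pair that rose had the highest counts of the 6, and no test was made on so few promoters. The Smad core CAGAC, searched on both strands, occurred once each in *Lhx1*, *Evx1*, *Cer1* and *Mesp1* and in 42.2% of all windows. The Foxh1 motif TGTGGATT (0.718% of all windows) and the T-box motif TCACACCT (1.12%) matched none of the 6 windows. These counts describe letters in the window.

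**Figure D1:**
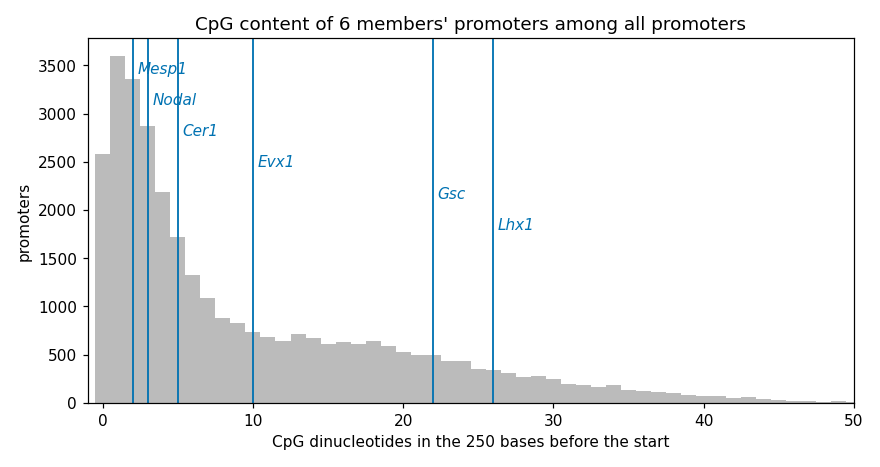
Number of CpG dinucleotides (x axis) in the 250 bases before the start of 32851 RefSeq promoters (grey bars, y axis: number of promoters), with lines at the 6 member genes. *Lhx1* (26) and *Gsc* (22) lie in the right tail, while *Mesp1*, *Nodal* and *Cer1* lie at 5 or fewer.

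Signals are log2 values after quantile normalization, so a difference of 1 is a doubling of signal. The ESC marker *Pou5f1* lay between 12.34 and 12.87 over all arrays. Its change after OHT was -0.49 in the mock line, -0.22 in the mutant lines and -0.004 in the WT lines. Not all ESC markers fell. Of 12 listed, 4 changed above 0 in both the mutant and the mock class (*Klf4*, *Tfcp2l1*, *Nanog* and *Dppa5a*), and 9 in the WT class. Probe sets of *Rnf2*, which encodes Ring1B, gave a gene average whose change was -0.26 for the mock line and -0.09 for both the WT and the mutant class, with no call. The sources used here do not give the place of these probe sets relative to the deleted part, so they do not check the labels. As deposited, the array medians ran from 4.66 to 5.67. Without normalization the median of all genes moved by -0.13 in the mutant lines and by -0.34 in the mock line. Because 1 array was made per line and time, single levels have no error of their own. For changes after OHT, p-values and SEs use the spread of the changes between lines of a class. That spread is pooled over the WT and mutant lines and moderated by limma, so an SE is not that of 1 class alone. The comparison before OHT uses the spread of levels between untreated lines.

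In the mutant lines *Fgf8*, *Gsc* and *Lhx1* rose and *Lefty1* fell after OHT, and the other 6 genes did not pass the test. The rises were 2.79-fold for *Fgf8*, 2.58-fold for *Gsc* and 1.68-fold for *Lhx1*, and *Lefty1* was 2.17-fold lower. The *Lhx1* value averages 2 probe sets, of which 1 passed the filter on low values through day 2 arrays only. In the limma fit with the line as a block and Benjamini-Hochberg adjustment over all genes, 4.91% of the 16432 genes were called higher and 1.55% lower in the mutant lines. Of the 10 genes 3 were higher and 1 lower. As deposited, 540 genes were called higher and 571 lower, against 807 and 255 after normalization, and the same 4 members were called.

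*Fgf8* (probe set 1451882_a_at) encodes a fibroblast growth factor of the primitive streak. Before OHT its signal was 3.65 in the mock line, 4.03 and 3.86 in WT #1 and #3, 3.69 and 3.59 in I53S #1 and #4, and 3.65 in I53A #1. At day 2 it was 4.38 in the mock line, 4.28 and 4.50 for WT, 4.996 and 5.24 for I53S, and 5.12 for I53A. The signal was higher at day 2 in every line. The mutant lines started below both WT lines, but this difference before OHT, at -0.30, was not called (limma adjusted p = 0.951). The share of all genes with such a start was not counted. After OHT the mutant lines rose by 1.30 to 1.66, against 0.26 to 0.64 in the WT lines. Changes of all mutant lines lay above those of both WT lines in 16.1% of all genes. The fitted change in the mutant lines was 1.48 ± 0.12 (SE, n = 3 lines; limma adjusted p = 0.00617). In the WT lines it was 0.45 ± 0.15 (n = 2 lines; limma adjusted p = 0.579) and in the mock line 0.73 ± 0.21 (limma adjusted p = 0.146). Before OHT *Fgf8* stood above the filter value of 3.94, the 30th percentile of all signals, on 1 of 6 arrays, so its starting level is near the low end of the array.

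*Gsc* (1421412_at) encodes goosecoid, a homeodomain factor of the organizer and anterior streak. Before OHT the mock line had 4.09, WT #1 and #3 had 3.88 and 3.81, I53S #1 and #4 had 3.74 and 2.96, and I53A #1 had 4.20. At day 2 these were 5.10 in the mock line, 4.43 and 3.77 for WT, 5.21 and 4.50 for I53S, and 5.29 for I53A. The changes of the mutant lines, from 1.10 to 1.53, did not overlap those of the WT lines, from -0.05 to 0.55. Of all genes 16.1% had every mutant line above both WT lines in this way. I53S #4 began lowest and rose by the most. Before OHT *Gsc* stood above the filter value of 3.94 on 2 of 6 arrays, so its starting level is near the low end of the array. The fitted change was 1.37 ± 0.15 in the mutant lines (n = 3 lines; limma adjusted p = 0.0111), 0.25 ± 0.19 in the WT lines (limma adjusted p = 0.842) and 1.01 ± 0.26 in the mock line (limma adjusted p = 0.124).

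*Lhx1* encodes a LIM homeodomain factor of the streak and anterior mesendoderm, and was measured by 2 probe sets. Averaged over them, its signal before OHT was 3.87 in the mock line, 3.76 and 3.95 in WT #1 and #3, 3.72 and 3.61 in I53S #1 and #4, and 3.68 in I53A #1. At day 2 it was 4.55 in the mock line, 3.82 and 3.79 for WT, 4.36 and 4.42 for I53S, and 4.49 for I53A. The mutant lines changed by 0.64 to 0.81 and the WT lines by -0.16 to 0.06. Such a separation, with all mutant lines above both WT lines, held for 16.1% of all genes. The change was 0.75 ± 0.10 in the mutant lines (n = 3 lines; limma adjusted p = 0.0144), -0.05 ± 0.12 in the WT lines (limma adjusted p = 0.965) and 0.69 ± 0.17 in the mock line (limma adjusted p = 0.108). The probe sets differed. 1450428_at was above the filter value on 4 arrays, all at day 2, and so passed the filter only where it was high; its mean change of 0.93 in the mutant lines is given as a description. 1421951_at, tested singly and adjusted over all probe sets, gave 0.58 ± 0.14 and was not called (limma adjusted p = 0.0959). The call of *Lhx1* therefore rests on an average that includes the former.

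*Lefty1* (1417638_at) encodes a secreted Nodal antagonist and was the member that fell. Before OHT it was at 11.62 in the mock line, 11.42 and 10.54 in WT #1 and #3, 11.45 and 10.15 in I53S #1 and #4, and 10.71 in I53A #1. At day 2 it was at 10.45 in the mock line, 10.98 and 10.50 for WT, 10.21 and 9.02 for I53S, and 9.72 for I53A. The lines differed by over 1 log2 unit before OHT, also within a class, and the mutant lines fell by between 0.99 and 1.24 from these different starts. The change was -1.12 ± 0.11 in the mutant lines (n = 3 lines; limma adjusted p = 0.00941), -1.17 ± 0.20 in the mock line (limma adjusted p = 0.0595) and -0.24 ± 0.14 in the WT lines (limma adjusted p = 0.768).

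**Figure D2:**
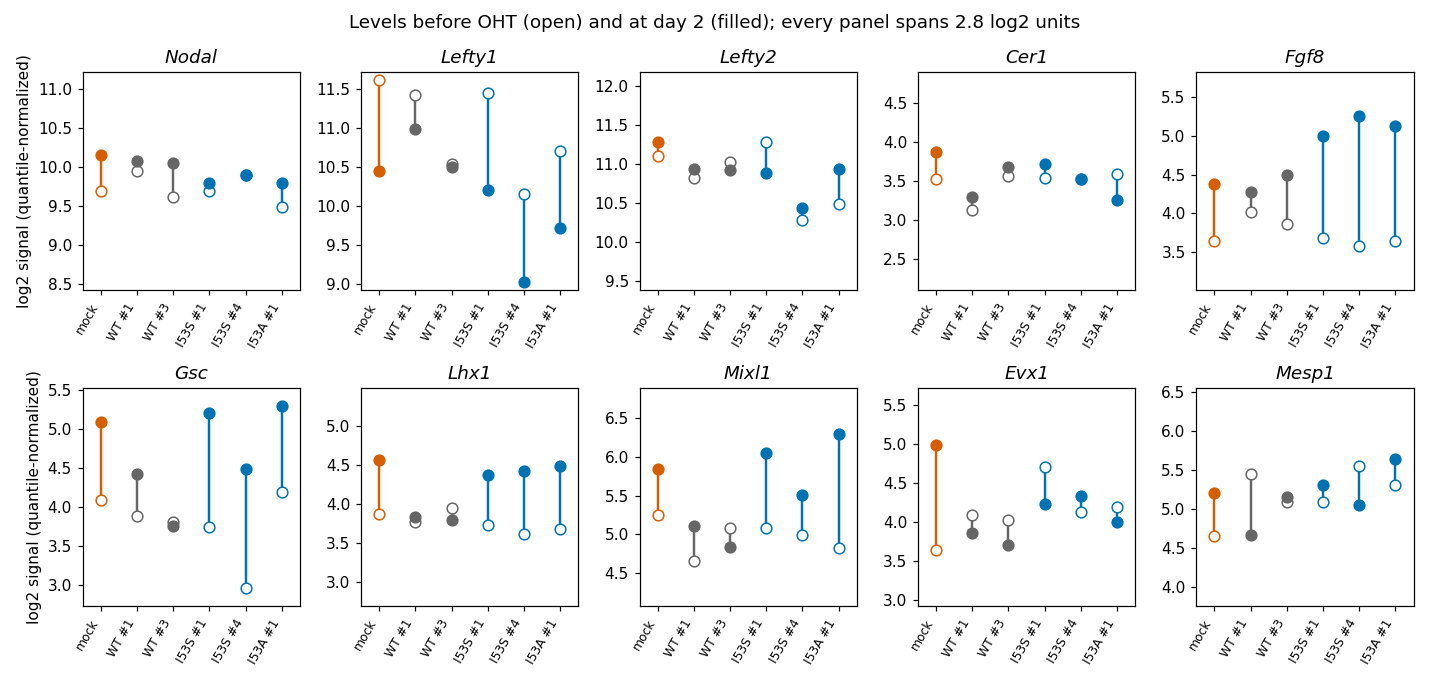
Log2 signal (y axis, 2.8 units in every panel) of each gene in the 6 lines (x axis), before OHT (open circles) and at day 2 (filled circles), 1 array per circle; orange is the mock line, grey the WT lines and blue the mutant lines. *Fgf8*, *Gsc* and *Lhx1* rise and *Lefty1* falls in all 3 mutant lines, while the mutant lines of *Lefty2* disagree in direction.

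Not all of these calls held when a mutant line was left out. Without I53S #1 or without I53S #4, *Fgf8* alone of the 10 genes was called, and without I53A #1 *Fgf8* and *Gsc* were. Calls over all 16432 genes, 807 higher and 255 lower, also fell. They were 160 and 17 without I53S #1, 167 and 26 without I53S #4, and 144 and 9 without I53A #1. The adjusted p of *Lefty1* was then between 0.0525 and 0.0615, that of *Lhx1* between 0.0693 and 0.0840, and that of *Gsc* 0.0725 without I53S #1 and 0.0664 without I53S #4. Their changes kept their direction. Without a filter on low values the same 4 genes were called, but all 13 member probe sets had passed that filter. The member values are therefore unchanged there, and this setting could hardly differ. Without the line as a block *Gsc* (limma adjusted p = 0.0533) and *Lefty1* (0.187) missed the threshold, and *Lhx1* did so when only its brighter probe set was used (0.0722).

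*Mixl1* (1421505_at) encodes a paired-type homeodomain factor of the streak. It changed by 0.96 and 0.51 in I53S #1 and #4 and by 1.47 in I53A #1, against 0.45 and -0.24 in WT #1 and #3 and 0.59 in the mock line. All mutant lines thus lay above both WT lines, as in 16.1% of all genes, and I53S #4 lay close to WT #1. With values as deposited this separation was absent, at 0.28 in I53S #4 and 0.53 in WT #1. The fitted value of 0.98 ± 0.22 missed the threshold (n = 3 lines; limma adjusted p = 0.0598). It passed in 3 of 14 alternatives: with a trended and robust prior (limma adjusted p = 0.00781), with a filter on the mean (0.0285) and without the block (0.0357). None of the 6 fits with a line left out called it. Over the alternatives its change lay between 0.73 and 1.23.

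*Nodal* itself, the ligand (1422057_at and 1422058_at), was not called in any comparison. Its average signal before OHT was 9.69 in the mock line, 9.95 and 9.61 in WT #1 and #3, 9.69 and 9.90 in I53S #1 and #4, and 9.48 in I53A #1. At day 2 it was 10.15 in the mock line, 10.07 and 10.05 for WT, 9.79 and 9.90 for I53S, and 9.80 for I53A. After quantile normalization the gene gained between 0.00 and 0.46 in every line, without a separation of the classes. As deposited, its 2 probe sets changed by -0.03 and -0.26 in I53S #4 and by 0.07 and 0.04 in the mock line. The fitted change was 0.14 in the mutant lines (95% interval from -0.13 to 0.41), 0.28 in the WT lines (from -0.06 to 0.61) and 0.46 in the mock line (from -0.02 to 0.93). The 2 probe sets of *Nodal* went apart in WT #3, at 0.24 and 0.62, and in WT #1, at 0.32 and -0.07. They also differed in sign in I53S #4, at 0.11 and -0.11.

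*Lefty2* (1436227_at), the other Lefty antagonist, did not move with *Lefty1*. It changed by -0.40 in I53S #1, 0.15 in I53S #4 and 0.45 in I53A #1, so that the mutant lines disagreed in sign. The WT lines had 0.11 and -0.10 and the mock line 0.18, within the spread of the mutant lines. The fitted change in the mutant lines was 0.07 (95% interval from -0.36 to 0.49; limma adjusted p = 0.851).

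*Cer1*, a secreted antagonist of Nodal and BMP, stayed at the low end of the array. Its average lay between 3.13 and 3.86 over the 12 arrays, with changes from -0.33 in I53A #1 to 0.35 in the mock line. Of its 2 probe sets 1450256_at passed the filter on 1 day 2 array alone. In all, 13 of 13 member probe sets passed and 2, this one and 1450428_at of *Lhx1*, did so through day 2 arrays only.

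*Evx1* (1421627_at), a homeodomain factor of the posterior streak, stood out in the mock line. Its signal there went from 3.65 to 4.996, the lowest of the 6 lines before OHT and the highest at day 2. That start lay below the filter value of 3.94, on 1 array, and with values as deposited the rise was 0.98. It went from 4.09 to 3.86 and from 4.03 to 3.71 in the WT lines, from 4.70 to 4.23 and from 4.14 to 4.34 in the I53S lines, and from 4.20 to 4.003 in the I53A line. The rise of 1.35 ± 0.24 in the mock line (1 line, spread taken from the other lines) missed the threshold (limma adjusted p = 0.0656), and the mutant lines gave -0.15 ± 0.14 (limma adjusted p = 0.567). The difference between mock and mutant lines was 1.50 (95% interval from 0.80 to 2.20; limma adjusted p = 0.502).

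*Mesp1* (1426557_at), a bHLH factor of early mesoderm, changed by between -0.51 and 0.34 in the mutant lines. WT #1 gave -0.79, WT #3 0.07 and the mock line 0.54, so neither class moved one way. The fitted change in the mutant lines was 0.02 (95% interval from -0.55 to 0.58).

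**Figure D3:**
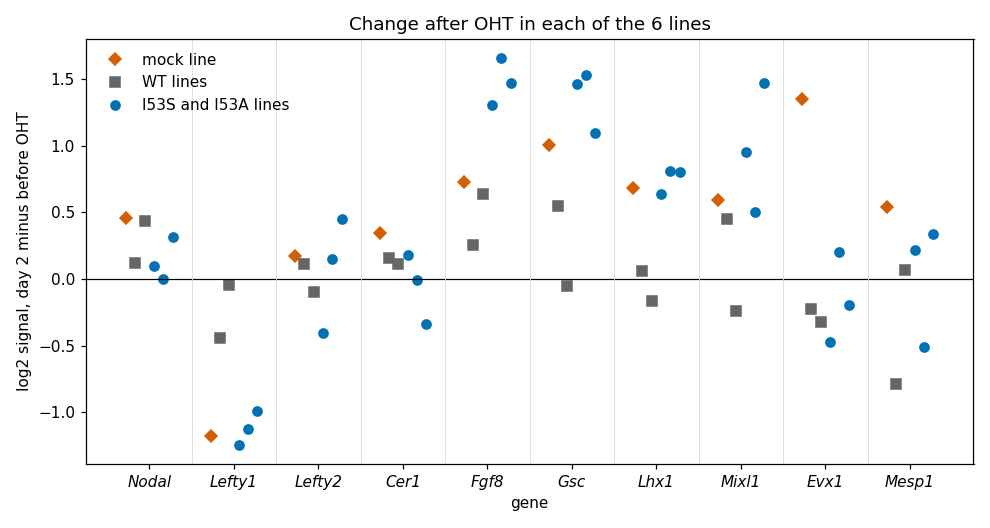
Change in log2 signal, day 2 minus before OHT (y axis), of each gene (x axis) in each line: diamonds are the mock line, squares the WT lines and circles the I53S and I53A lines. The circles of *Fgf8*, *Gsc*, *Lhx1* and *Mixl1* lie above both squares and those of *Lefty1* below them; *Evx1* is above 1 in the mock line alone.

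In the mock line none of the 10 genes was called by limma, where 1.29% of all genes were called higher and 0.383% lower, 5 of the 10 had an unadjusted p under 0.05, and 19.9% of all genes did. In the WT lines none was called, as for all genes (0% called), and *Fgf8* alone of the 10 had an unadjusted p under 0.05, against 1250 of 16432 genes. As deposited, the mock line gave 175 genes higher and 747 lower, against 212 and 63, and *Lefty1* was then called at -1.61 (limma adjusted p = 0.0350).

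The difference between mutant and WT lines was tested directly, and no gene of the 16432 passed (0% called). *Fgf8* rose by 1.03 more in the mutant lines (95% interval from 0.57 to 1.50; limma adjusted p = 0.148), *Gsc* by 1.12 more (from 0.52 to 1.71; 0.182) and *Lhx1* by 0.80 more (from 0.43 to 1.17; 0.152). *Lefty1* differed by -0.88 (from -1.32 to -0.43; 0.178), and it was the only member to pass under an alternative, the trended and robust prior (limma adjusted p = 0.00602), under which 194 genes of all were called higher and 78 lower. The filter on the mean gave 42 higher and 5 lower, with none of the 5 members it left in among them. With *Mixl1*, 5 of the 10 had an unadjusted p under 0.05, as had 2066 of all genes. After quantile normalization all mutant lines changed above both WT lines in 4 genes, *Fgf8*, *Gsc*, *Lhx1* and *Mixl1*, the last not as deposited. Such a separation held for 16.1% of all genes, and in *Lefty1* all lay below, which held for 15.0%. A called change in the mutant lines and none in the WT lines is therefore not a difference shown between them.

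Mock minus WT and mock minus mutant lines gave no call either (0% of all genes in each). For mock minus WT 3 members had an unadjusted p under 0.05, *Evx1*, *Lefty1* and *Lhx1*, and 2360 of all genes. For mock minus mutant 2 did, *Evx1* and *Fgf8*, and 1322 of all genes. These comparisons share lines with each other and with those above. Before OHT, mutant and WT lines were compared on the 6 untreated arrays. None of the 10 genes was called or had an unadjusted p under 0.05 (0% of all genes called; 862 had an unadjusted p under 0.05; as deposited, 41 genes were called higher and the median of all genes was 0.28, with no member called), and the largest member difference was -0.30 for *Fgf8* (95% interval from -0.66 to 0.06).

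**Figure D4:**
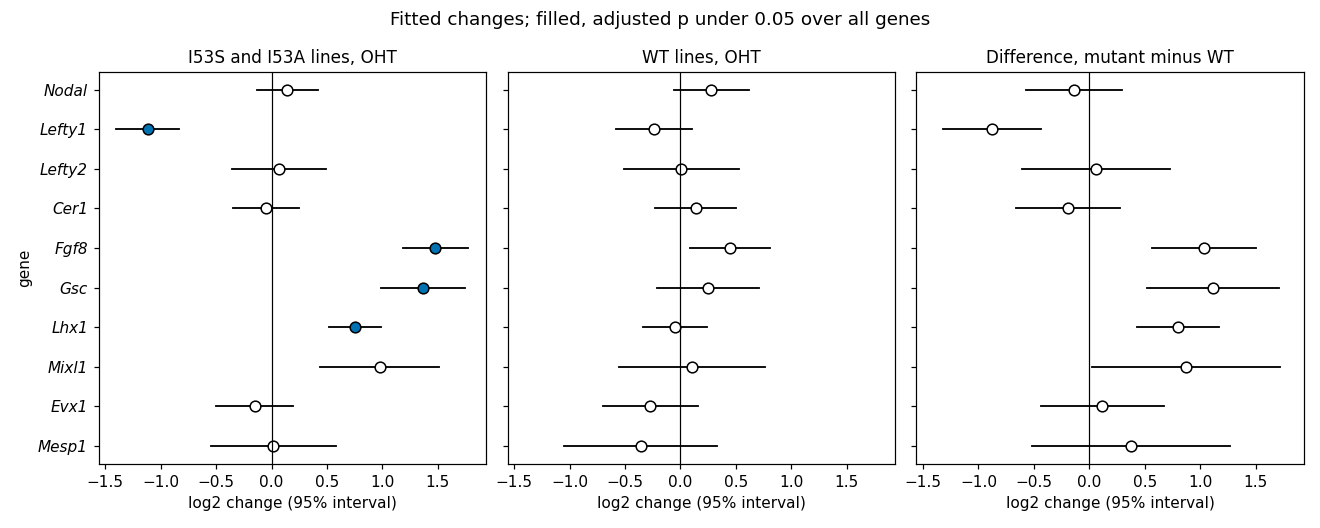
Fitted log2 change after OHT in the mutant lines (left) and the WT lines (middle), and the difference of both (right), with 95% intervals (x axis); filled circles have an adjusted p under 0.05 over all genes. *Fgf8*, *Gsc*, *Lhx1* and *Lefty1* are filled on the left, and no gene is filled in the other panels although several intervals of the difference lie off 0.

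No further gene of the Nodal pathway was called in any comparison. Of 22 ligands, receptors, Smads and feedback genes 20 were measured, with an unadjusted p under 0.05 for 3 of them in the mutant lines, where 23.7% of all genes had one, and for 4 in the mock line, where 19.9% had one. Their median change was 0.00 for the mutant, 0.06 for the WT and -0.09 for the mock class, where the medians of all genes were -0.01, 0.00 and 0.00. In the mutant lines the smallest p belonged to *Gdf3*, a Nodal-related ligand, with -0.36 ± 0.09 (limma adjusted p = 0.0764), and to *Pcsk6*, a proprotein convertase that cleaves Nodal, with 0.27 ± 0.09 (0.154). In the mock line they belonged to *Smad7*, an inhibitory Smad, with -1.09 ± 0.23 (limma adjusted p = 0.0902), and to *Acvr2b*, an activin receptor, with -0.60 ± 0.19 (0.166). In the WT lines *Acvr2a*, another activin receptor, had 0.21 ± 0.11 (limma adjusted p = 0.747) and *Tgif1*, a corepressor of Smad2, 0.18 ± 0.11 (0.801). The smallest p of a difference belonged to *Smad7* for mock minus WT (-1.30 ± 0.28; limma adjusted p = 0.178) and mock minus mutant (-1.22 ± 0.27; 0.502), with *Acvr2b* next in both (-0.70 and -0.49). For mutant minus WT it belonged to *Tdgf1*, the Cripto co-receptor (-0.33 ± 0.15; limma adjusted p = 0.446), and *Gdf3* (-0.27 ± 0.14; 0.510). Before OHT it belonged to *Cfc1*, a Cripto relative (-0.88 ± 0.20; limma adjusted p = 0.858), and *Skil*, a Smad corepressor (-0.49 ± 0.18; 0.940). With values as deposited, with the filter on the mean and with the trended and robust prior, *Gdf3* was called lower in the mutant lines, as was *Smad7* in the mock line. *Acvr2b* was also called lower in the mock line as deposited. The trended and robust prior also called *Pcsk6* and *Tdgf1* in the mutant lines, and *Smad4* and *Tdgf1* in the mock line.

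Among other streak and mesendoderm genes, *Cdx1*, *Eomes*, *Sp5* and *Gata6* were called higher and *Otx2* lower in the mutant lines. Of 28 listed 26 were measured, and 4.91% and 1.55% of all genes were called in these directions. *Cdx1*, a caudal homeodomain factor, rose by 1.24 ± 0.15 (limma adjusted p = 0.0128), *Eomes*, a T-box factor of the streak, by 0.82 ± 0.10 (0.0144) and *Sp5*, a Wnt target, by 0.68 ± 0.10 (0.0186). *Otx2*, an anterior homeodomain factor, fell by 0.62 (SE 0.09; limma adjusted p = 0.0209), and *Gata6*, an endoderm factor named beyond the rule as the last called gene, rose by 0.52 ± 0.09 (0.0297). Without any one of the 3 mutant lines none of the list was called there. In the mock line *Cdx1* (1.95 ± 0.26; limma adjusted p = 0.0391), *Foxa2*, a factor of definitive endoderm and the node (1.88 ± 0.20; 0.0329), and *Gata6* (1.80 ± 0.15; 0.0322) were called higher. The mock line is 1 line with 1 array per time, so these SEs take their spread from the other lines. Leaving out any one of the other 5 lines took the mock line to 0 calls, over this list and over all genes. The median change of this list was 0.30 for the mutant, 0.67 for the mock and 0.05 for the WT class. None was called in the WT lines, where *Cxcr4*, a chemokine receptor, had the smallest p at 0.58 ± 0.19 (limma adjusted p = 0.579) before *Otx2* (-0.29 ± 0.11; 0.632), or in a difference between classes. For mutant minus WT the smallest p belonged to *Eomes*, at 1.06 ± 0.16 (limma adjusted p = 0.124), and *Cdx1*, at 1.22 ± 0.23 (0.152). For mock minus WT it belonged to *Gata6* (1.55 ± 0.19; limma adjusted p = 0.119) and *Foxa2* (2.01 ± 0.25; 0.119), and for mock minus mutant to the same pair (1.28 ± 0.18 and 1.37 ± 0.23; 0.485 each). Before OHT *Snai1*, a repressor of E-cadherin (0.56 ± 0.20; limma adjusted p = 0.934), and *Gata4*, an endoderm and heart factor (0.47 ± 0.17; 0.942), had the smallest p.

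Markers of other cells moved in the same arrays. Of 12 primitive endoderm markers, 3 are also in the streak list. In the mutant lines 3 were called higher (*Amn*, at 1.88, *Col4a1*, at 0.56, and *Gata6*), and the same 3 in the mock line. Of all genes 4.91% and 1.29% were called higher there. The markers did not all rise. In the mutant class 8 of the 12 changed above 0, while *Lama1* (-0.36), *Afp* (-0.26), *Gata4* (-0.19) and *Ttr* (-0.08) fell without a call. *Lama1* and *Ttr* fell by a similar amount in the mock class (-0.53 each), where 10 of the 12 changed above 0. The WT class gave -0.02 for *Lama1* and -0.63 for *Ttr*. The summed log2 signal of the 12 went from between 73.7 and 79.0 to between 78.9 and 82.0 in the mutant lines, from 68.6 to 77.7 in the mock line, and from between 71.3 and 75.5 to between 70.9 and 75.2 in the WT lines. Of 12 fibroblast markers 11 were measured and 1, *Thy1*, was called higher, in both the mutant and the mock class, beside the same shares of all genes. Their summed log2 signal before OHT was 83.3 in the mock line, between 70.4 and 75.9 in the WT lines and between 75.1 and 82.2 in the mutant lines, and at day 2 it was 90.6, between 69.8 and 75.9 and between 75.7 and 89.1. In I53S #1, I53S #4 and I53A #1 the median change of the fibroblast markers was 0.65, 0.25 and 0.14, and that of the primitive endoderm markers 0.35, 0.17 and 0.44. Log2 array signals have no 0, and the part of these markers in the changes of the 10 genes was not tested. In bulk RNA fewer cells of a type and less RNA per cell cannot be told apart. Of 12 ESC markers, of which *Tdgf1* is also in the pathway list, *Klf4* was called higher (0.55) and *Nr0b1* lower (-1.32) in the mutant lines, where 4.91% of all genes were called higher and 1.55% lower, and the median change of the 12 was -0.24. In either direction, 9 of the 12 had an unadjusted limma p under 0.05 in the mutant lines, against 23.7% of all genes. In the mock line *Nr0b1* was called lower (-1.49), as were 0.383% of all genes, and the median was -0.19.

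The genes whose signal was most like that of *Nodal* over the 12 arrays were *Hspb1*, *6430571L13Rik* and *Kifc5b*, with a Pearson r from 0.87 to 0.90. For *Lefty1* they were *Fahd1*, *Osbpl1a* and *Atl3* (all at 0.95), and for *Lefty2* *Tsr1*, *Fen1* and *Ifrd2* (0.90 to 0.96). None of these is a member, and the arrays come in pairs from 6 lines, so the values are a description of this set.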

How the data were processed

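RNA of 12 samples was hybridised to Affymetrix mouse arrays. The values are log2 signals per probe set, as the authors deposited them. For their making the labels name Affymetrix Expression Console and RMA, while the supplementary methods describe MAS5 with quantile normalization, and versions are not given in the sources used here. The labels and the paper also name different array models. Of 45101 probe sets 64 controls were left out, and 34945 of the rest had 1 gene symbol, 932 several and 9160 none. The values were quantile-normalized, a probe set stayed in if its highest value passed 3.94 (30th percentile), and those of a gene were averaged, which gave 16432 genes. R 4.3.3, limma 3.58.1 (lmFit, eBayes, two-sided, 3 residual degrees of freedom) and statmod 1.5.0 were used, blocking on the line and fitting OHT separately for each class. The block is the cell line, whose 2 arrays carry the same number; deviations from class means correlated between them at 0.27 (WT) and from 0.36 to 0.43 (mutant). Calls needed an adjusted p under 0.05 (Benjamini-Hochberg over all genes). The fit was tested on simulated data. No array was a copy of another. Precision is limited by the number of arrays.

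The members and lists were chosen with earlier results of these data known. Named were all members; of the Nodal pathway and streak lists, up to 4 called genes with the largest change or, where no gene was called, up to 2 of smallest p; and the 3 genes most like *Nodal*, *Lefty1* and *Lefty2*. *Mixl1* and other uncalled members are given by that rule. Genes of the marker lists were named where called. Of the housekeeping list 7 of 9 genes were measured, and *B2m* was called higher in the mutant lines. Alternatives were values as deposited, median centring, the probe set with the highest mean, probe sets tested singly, other filters, trended and robust priors, no block, the I53S lines alone, and each line left out.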

Additional observations from a re-analysis of the deposited data

How the results depend on the processing

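Of the 10 genes 4 were called in the mutant lines. A filter that asks for a mean above the overall median gave 2 (*Lefty1* and *Mixl1*, with 5 members measured), taking I53S alone as the mutants gave 2 (*Fgf8* and *Gsc*), and leaving out each line in turn gave between 1 and 4. Fewer genes or samples stand behind these values by construction, and the filter on the mean left out *Fgf8*, *Gsc*, *Lhx1*, *Cer1* and *Evx1* for their low signal. With that filter 11677 genes were tested, of which 1088 were called higher and 689 lower in the mutant lines. The other alternatives gave between 3 and 5. In the mock line the count of 0 became 1 with values as deposited, 1 with the filter on the mean and 2 with trended and robust priors (*Lefty1*, with *Evx1* in the last). That prior also gave 1 (*Lefty1*) for mutant minus WT and 1 (*Lefty1*) for mock minus WT, where the count was otherwise 0; over all genes it called 194 higher and 78 lower, and 276 and 177, where the constant prior called 0, and the filter on the mean called 42 and 5, and 12 and 5. The cause was not tested. Without the replicate block (the line) 3 members were called in the mutant lines, *Fgf8*, *Lhx1* and *Mixl1*, while *Gsc* had an adjusted p of 0.0533 and *Lefty1* of 0.187; the counts of the other comparisons after OHT stayed at 0, and the comparison before OHT has no block. No called change turned its direction. Over all genes, the calls in the mutant lines (807 higher and 255 lower) were 1365 and 854 with the trended and robust prior, 1088 and 689 with the filter on the mean, 486 and 77 without the block, and 144 and 9 for the I53S lines alone. Leaving out a line gave between 144 and 801 higher. Under the same settings the mock line went from 212 and 63 to 814 and 526, 555 and 328, 87 and 10, and 0 and 0, and to 0 calls when any one of the other lines was left out.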
